A study of Mus musculus with 78 samples.

Results

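The genes of RNA polymerase II (Pol II) and of the general transcription machinery were described in single blastomeres of mouse 4-cell and 8-cell embryos. They were taken as the mouse protein-coding genes whose symbol starts with Polr2, Gtf2, or Med, Taf or Supt followed by a digit, together with Eloa, Elob, Eloc, Tbp, Cdk7 and Cdk9. The rule uses names and no measured value. It found 96 genes among the 16956 genes listed at either stage, and 95 of them were listed at both stages. Gtf2a1l was listed at the 8-cell stage alone. Of the 97 genes that fit the rule in the RefSeq annotation, Taf7l2 was listed in neither table.

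Pol II is the enzyme that makes every messenger RNA. It reaches a promoter through the general transcription factors. TFIID, which holds the TATA-binding protein Tbp and its associated factors (TAFs), marks the promoter, TFIIA and TFIIB join it, TFIIF brings the polymerase, and TFIIE and TFIIH open the DNA. Mediator, a large complex of MED proteins, carries signals from enhancer-bound activators to the polymerase. P-TEFb, DSIF, Elongin and histone chaperones act once the polymerase is moving along the gene. In early mouse embryos these proteins are first supplied by the egg and later by the embryo's own genome, which becomes active mainly at the 2-cell stage.

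All embryos came from a cross of mice that carry the allele Gt(ROSA)26Sortm1(CAG-Brainbow2.1)Cle with mice that carry the transgene Tg(CAG-cre/Esr1*)5Amc. Each carried 1 copy of the multicolour reporter and 1 copy of a Cre recombinase that 4-Hydroxytamoxifen activates, both driven by the broadly active CAG promoter. Every embryo was treated briefly with 4-Hydroxytamoxifen at the 2-cell stage and then cultured in KSOM medium, and no group without reporter, Cre or treatment enters the comparison. Blastomeres were separated and their full-length cDNA was amplified with the Smart-seq2 protocol. The labels list 36 4-cell and 31 8-cell blastomeres, and the gene tables hold 24 4-cell and 26 8-cell columns, 1 per blastomere. These column numbers equal the study's numbers of blastomeres whose division lineage was resolved.

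The columns of the tables have names that fit no single sample label. A blastomere was therefore not assigned to its embryo or to its division lineage, and neither column order nor library depth was used to place it. Each stage counts as 1 sample, and differences between stages have no test and no p-value. Blastomeres of 1 embryo are not independent, so the counts of blastomeres given below describe the columns and are not counts of replicates. Values below are FPKM, that is, fragments scaled by the length of the transcript and by the depth of the library, and are given as the lowest, median and highest value over the blastomeres of a stage. FPKM measures the share of a library and not molecules per cell, so less RNA of a gene and more RNA of other genes cannot be told apart.

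Library depth, as derived from the low FPKM values, was 6870000 to 16900000 fragments in 4-cell blastomeres (median 13400000) and 2340000 to 21700000 fragments in 8-cell blastomeres (median 17200000). Genes above an FPKM of 1 numbered 3009 to 8276 and 3548 to 8078. At each stage 3 blastomeres had fewer than 5000 such genes. The blastomere label was checked against marker genes. The maternal gene Dppa3 was above 1303 FPKM in all 24 4-cell blastomeres and above 2473 in all 26 8-cell blastomeres, and the pluripotency factor Pou5f1 had medians of 41.5 and 110. Of the other blastomere markers, Zp3 of the oocyte coat had 83.2 and 45.6, Tead4 had 47.1 and 70.6, and the maternal gene Nlrp5 was low with 5.06 and 0.122. Cdx2 was not listed at the 4-cell stage and was at 0 in 22 of 26 8-cell blastomeres. Of 7 cumulus and granulosa cell markers, Foxl2, Fshr, Inha, Inhba and Lhcgr were listed at neither stage, and Amh had a median of 0 at both stages. Cyp19a1 was listed at the 4-cell stage alone, with 2 blastomeres above 1.

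Most of the transcription machinery was present at both stages, and at higher levels than most genes. Of the 95 genes listed at both stages, 86 had a 4-cell median above an FPKM of 1 and 84 an 8-cell median above 1, which is 90.5% and 88.4% of them. Among the 12714 protein-coding genes listed at both stages the shares were 52.0% and 47.97%. The median gene of the machinery stood at 47.5 FPKM at the 4-cell stage and 38.7 at the 8-cell stage, against 1.51 and 0.477 for protein-coding genes. Medians above 100 FPKM were found for 23 and 21 machinery genes. A single blastomere expressed 42 to 90 of the genes above an FPKM of 1 at the 4-cell stage (median 84) and 48 to 90 at the 8-cell stage (median 83). A set of 20 genes, or 21.1% of the 95, stayed above 1 in every blastomere of both stages, where 7.25% of protein-coding genes did. Highly expressed genes are detected more often, and nothing beyond level is read from this share.

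**Figure D1:**
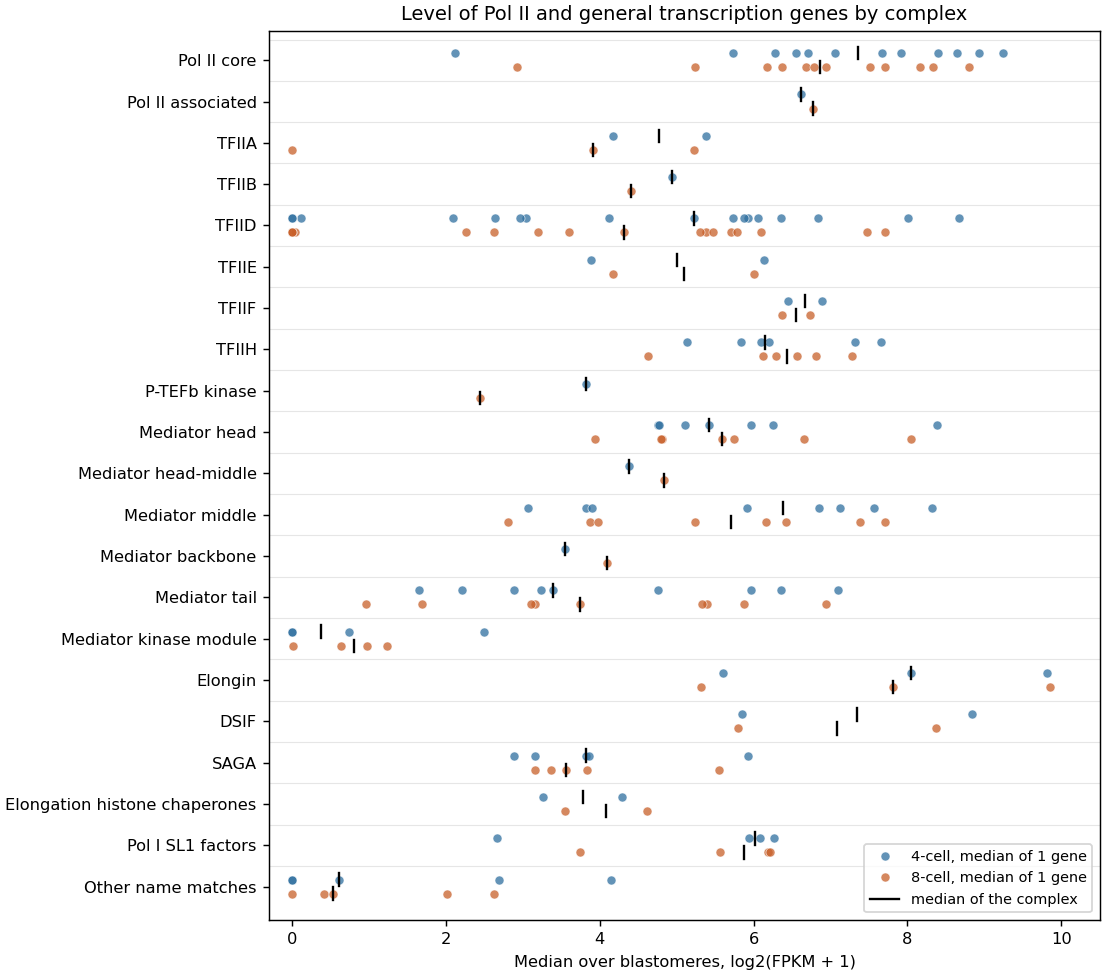
Median level of each gene over the blastomeres of a stage, as log2(FPKM + 1), in rows by complex. Blue points are 4-cell medians, orange points are 8-cell medians, and black bars are the median of the genes in a complex. The medians of the Pol II core, Elongin and DSIF are the highest at both stages, although single genes of them such as Polr2a (3.34 and 6.61 FPKM) lie far to the left. The medians of the Mediator kinase module and of the other genes caught by the symbol rule are the lowest.

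The order of the genes was similar at the 2 stages, with a Spearman correlation of 0.97 between 4-cell and 8-cell medians over the 95 genes. This is a description across genes, which are not independent replicates. Shorter genes stood higher on this per-length scale. Exon length and median FPKM had Spearman correlations of -0.60 and -0.57 over the 95 genes, against -0.22 and -0.19 over 12709 protein-coding genes with a known length. The 48 genes with exons of up to 2499 bases had a median level of 83.4 FPKM at the 4-cell stage, and the 47 longer ones had 13.5. Exon length and the difference between stages, 8-cell minus 4-cell, had a Spearman correlation of 0.27 over the 95 genes. The part of length in the level and stage differences described below was not tested.

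The 12 core subunits of Pol II differed widely in level. At the 4-cell stage 8 of the 12 had medians above 100 FPKM, and the same number did at the 8-cell stage. Polr2f, a small subunit shared with Pol I and Pol III, was the highest of them. Its level was 284 to 865 FPKM at the 4-cell stage (median 603) and 199 to 847 at the 8-cell stage (median 445). Polr2e, a shared subunit as well, followed with 234 to 630 (median 486) and 187 to 520 (median 322). Neither gene was below 187 FPKM in any of the 50 blastomeres.

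Polr2a, which encodes the largest subunit with the catalytic centre and the C-terminal repeat tail, stood apart from its partners. It ranged from 0.00957 to 51.1 FPKM in 4-cell blastomeres (median 3.34) and from 0 to 28.1 in 8-cell blastomeres (median 6.61). Polr2a was the lowest of the 12 core subunits in 21 of 24 4-cell and 24 of 26 8-cell blastomeres. Within a blastomere it stood at a median of 1.78% and 5.91% of the median core subunit. Polr2b, the second largest subunit, which forms the active site together with Polr2a, had medians of 103 and 101 FPKM. The median of 3.34 FPKM for Polr2a rests on a median of 283 fragments, because its exons span 6736 bases. Fragments are PCR copies and not independent molecules, so this number does not show how many Polr2a transcripts were captured. The remaining core subunits had medians from 52.2 (Polr2i) to 398 (Polr2j) FPKM at the 4-cell stage. Polr2m, which associates with the polymerase, had medians of 97.6 and 109.

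TFIID held both some of the highest and some of the lowest genes. Taf9, a histone-fold subunit, ranged from 220 to 735 FPKM in 4-cell blastomeres (median 408) and from 92.7 to 592 in 8-cell blastomeres (median 176). Taf13, another histone-fold subunit, had medians of 258 and 209. Tbp itself ranged from 34.02 to 272 in 4-cell blastomeres (median 113) and from 0 to 155 in 8-cell blastomeres (median 43.3). Taf10 was low beside them, with medians of 7.24 and 5.16, and Taf1, the largest subunit, had 5.23 and 8.16. Taf5, the WD-repeat scaffold of TFIID, was close to 0, with medians of 0.0781 and 0.0254 FPKM and with 9 of 24 and 9 of 26 blastomeres above 1. The paralogs Taf7l, known from germ cells, and Taf9b had medians of 0 at both stages.

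The other general factors were present at moderate levels. Gtf2f1, the larger TFIIF subunit, ranged from 57.4 to 237 FPKM in 4-cell blastomeres (median 117) and from 4.75 to 202 in 8-cell blastomeres (median 105). Its partner Gtf2f2 had medians of 86.0 and 82.0. The 6 TFIIH genes that the symbol rule takes had medians from 34.05 (Cdk7) to 201 (Gtf2h5) at the 4-cell stage. Of the TFIIH genes outside the rule, Ccnh lay within this range with 42.9, and Ercc2, Ercc3 and Mnat1 were lower, with 0.0724, 9.69 and 14.3. Cdk7, the kinase that phosphorylates the polymerase tail at promoters, was above 1 FPKM in 22 of 24 and in all 26 blastomeres. Gtf2b, the single gene of TFIIB, which places the polymerase over the start site, was 0 in 6 of 24 4-cell and 6 of 26 8-cell blastomeres and reached 104 and 92.9 in others. Its medians were 29.8 and 20.2.

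The 30 Mediator genes differed in median level between parts of the complex, while the genes of head, middle and tail overlapped widely. At the 4-cell stage gene medians ran from 26.0 to 333 FPKM in the head, 7.40 to 318 in the middle and 2.16 to 137 in the tail. Differences between parts were not tested. The median gene of the head stood at 41.7 and 46.9 FPKM and that of the middle at 87.1 and 53.8. The tail, which contacts activators, had 9.47 and 12.3. Med14, the backbone that joins the parts, had medians of 10.7 and 16.05. The 4 MED genes of the kinase module, which binds Mediator reversibly, were lowest with 0.333 and 0.752. The kinase and cyclin genes of this module lie outside the symbol rule and stood higher, with medians of 26.8 and 17.4 for Cdk8, 40.8 and 22.6 for Ccnc, and 1.92 and 1.16 for Cdk19. The highest Mediator genes were Med6 of the head with medians of 333 and 264, and Med10 of the middle with 318 and 209. Within the kinase module Med12, the subunit that activates the kinase, had medians of 0 and 0.0032 FPKM and was above 1 in 1 of 24 and 6 of 26 blastomeres. These 4 MED genes have exons of 8447 bases or more, and Med12 at its highest reached 5.27 FPKM.

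Genes of elongation included the highest of all. Eloc, a small subunit that Elongin shares with ubiquitin ligases, ranged from 213 to 1652 FPKM in 4-cell blastomeres (median 900) and from 501 to 1285 in 8-cell blastomeres (median 925). Elob, its partner in both kinds of complex, had medians of 263 and 225. Eloa, the large subunit that gives Elongin its transcriptional activity, ranged from 20.8 to 130 in 4-cell blastomeres (median 47.5) and from 0 to 80.6 in 8-cell blastomeres (median 38.7). Cdk9, the kinase of P-TEFb that releases paused polymerase, had medians of 13.2 and 4.42. Supt5, the large DSIF subunit, had medians of 56.5 and 54.4, and its small partner Supt4a had 456 and 329. The histone chaperones Supt16 and Supt6 had 18.6 and 23.5, and 8.68 and 10.6. The 5 SAGA genes, which belong to a coactivator complex that shares TAFs with TFIID, had medians from 6.54 (Supt3) to 59.6 (Supt20) at the 4-cell stage.

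Of 12 pairs of related genes set side by side within blastomeres, 9 could be compared at the 4-cell stage and 10 at the 8-cell stage. In most of them the same gene of the pair was the higher one in nearly every blastomere. Taf4 and Taf4b encode alternative TFIID subunits, and Taf4b is known for its role in oocytes. Taf4b was higher than Taf4 in 22 of 24 4-cell and 25 of 26 8-cell blastomeres. Taf4b ranged from 0.886 to 142 FPKM in 4-cell blastomeres (median 36.2) and from 0 to 49.9 in 8-cell blastomeres (median 18.96). Taf4 ranged from 0 to 59.3 (median 3.27) and from 0 to 15.03 (median 0), and 14 of 26 8-cell blastomeres had none.

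Taf5l, the SAGA counterpart of Taf5, was the higher of that pair in 22 of 24 and 23 of 26 blastomeres, with medians of 13.5 and 13.3 FPKM. The pair Taf6 and Taf6l went the other way. Taf6 of TFIID was higher in 23 of 24 and in all 26 blastomeres, with medians of 59.6 and 67.4 against 7.97 and 7.95 for Taf6l. Taf7 was higher than Taf7l, and Taf9 higher than Taf9b, in all 50 blastomeres. Med13 was higher than Med13l in 19 of 24 4-cell blastomeres and in 14 of 26 8-cell blastomeres. For Med12 and Med12l both genes were 0 in 11 of 24 4-cell blastomeres, and at the 8-cell stage Med12l was higher in 15 and Med12 in 9 of 26. Gtf2ird1 and Gtf2ird2 had 4-cell medians of 0. Gtf2ird2 was higher in 8 and Gtf2ird1 in 5 of 24 4-cell blastomeres, against 1 and 18 of 26 8-cell blastomeres. The Med12 and Gtf2ird pairs had medians below 1 FPKM for both genes at both stages, and the order within them is not read. Gtf2a1l was above 1 FPKM in 1 of 26 8-cell blastomeres, where its paralog Gtf2a1 had a median of 14.02.

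**Figure D2:**
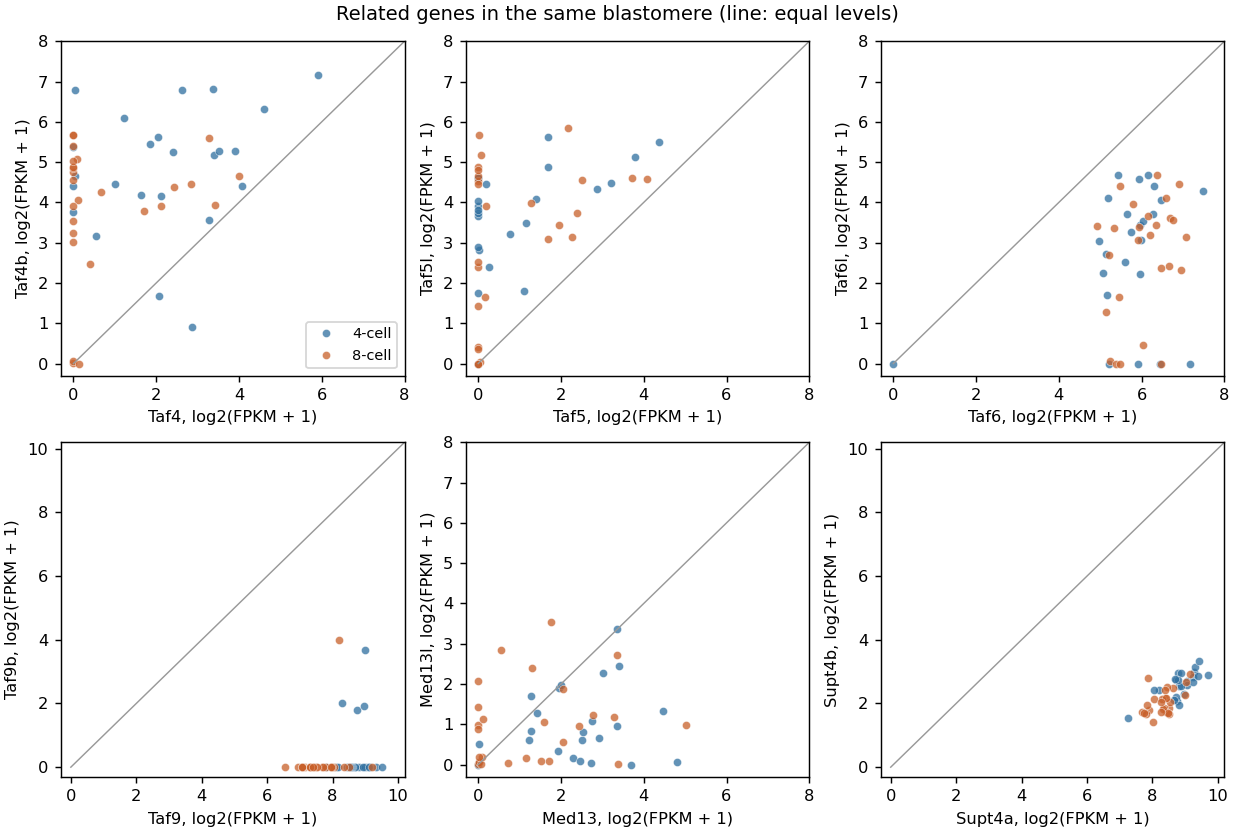
Levels of 6 pairs of related genes in the same blastomere, as log2(FPKM + 1), with 1 point per blastomere. Blue points are 4-cell, orange points are 8-cell, and the grey line marks equal levels. Taf4b and Taf5l lie above the line in most blastomeres, while Taf6l, Taf9b and Supt4b lie below it.

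Supt4b calls for its sequence to be shown, because it is nearly the same as Supt4a. Supt4a is coded in 5 blocks on chromosome 11, and Supt4b in 1 uninterrupted block on chromosome 10. Both coding sequences are 354 bases long and share 351 bases, an identity of 99.2%. The 3 stretches that tell them apart are printed here from RefSeq on GRCm38.p6, 5′ to 3′ along the coding strand, with the differing base in capitals. The Supt4a stretches lie at chr11:87737605-87737634, chr11:87738167-87738196 and chr11:87742796-87742825 on the plus strand. The Supt4b stretches lie at chr10:31414131-31414160, chr10:31414067-31414096 and chr10:31413960-31413989 on the minus strand.
Supt4a stretch 1: cctggagacggtaccAaaggacctgcggca
Supt4b stretch 1: cctggagacggtaccGaaggacctgcggca
Supt4a stretch 2: actatagaccagttCgaatatgatgggtgt
Supt4b stretch 2: actatagaccagttTgaatatgatgggtgt
Supt4a stretch 3: aatcaTtgcgatgatgagtccagaggacag
Supt4b stretch 3: aatcaAtgcgatgatgagtccagaggacag

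The longest run without a difference is 172 bases. The tables were made from uniquely aligned reads, so coding reads can be given to either gene mainly where they cross 1 of these bases, and the split between the genes is uncertain. Supt4b ranged from 1.89 to 9.18 FPKM in 4-cell blastomeres (median 5.45) and from 1.66 to 6.60 in 8-cell blastomeres (median 3.03). Within a blastomere it stood at 0.647% to 1.64% of Supt4a at the 4-cell stage and at 0.604% to 2.59% at the 8-cell stage. The interquartile range of Supt4b was 0.49 on the log2 scale at both stages, a spread close to that of Supt4a (0.51 and 0.47). Whether reads of Supt4a were counted as Supt4b was not tested.

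The spread between blastomeres was measured as the interquartile range of log2(FPKM + 1). Its median over machinery genes with a median above an FPKM of 1 was 0.99 at the 4-cell stage and 1.10 at the 8-cell stage. Without the 3 blastomeres at each stage that had fewer than 5000 genes, it was 0.86 and 0.96. Spread depended on level, and genes of the machinery were set beside protein-coding genes of like level. For medians from 10 to 50 FPKM the median spread of the 22 machinery genes at the 4-cell stage was 1.32, against 1.48 for 2363 protein-coding genes. For medians above 150 FPKM it was 0.52 for 16 machinery genes and 0.63 for 623 protein-coding genes. At the 8-cell stage the values were 1.45 and 1.49 in the lower class and 0.63 and 0.54 in the upper one. In these classes the median machinery gene lay within the quartiles of protein-coding genes of like level.

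**Figure D3:**
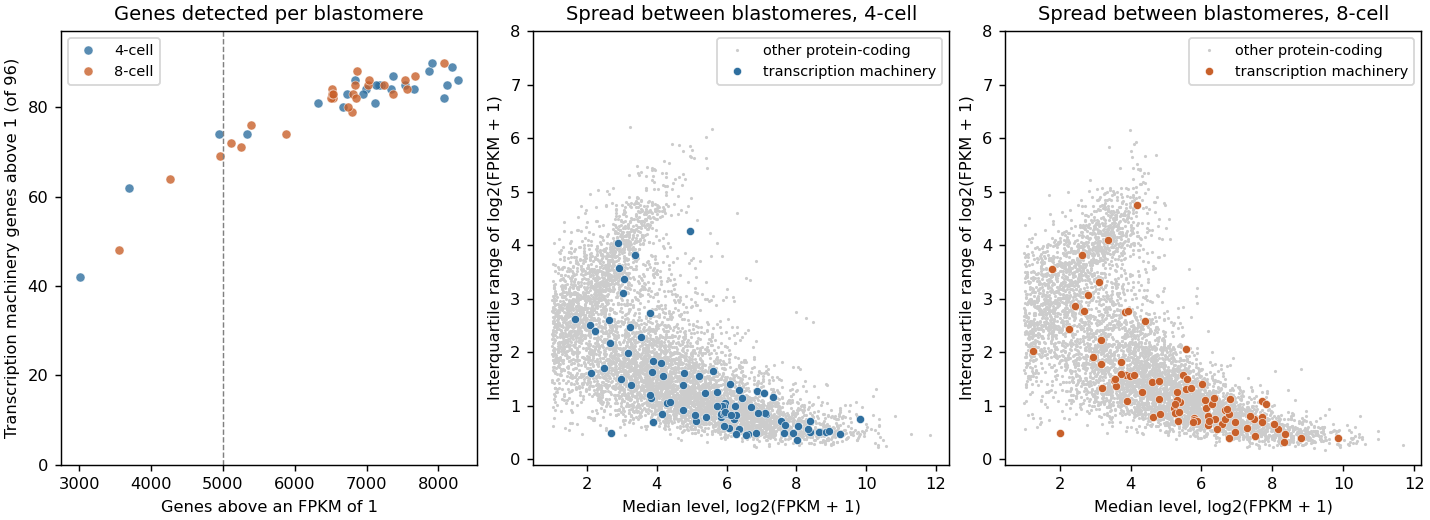
Left, machinery genes above an FPKM of 1 against all genes above 1 in each blastomere, with a dashed line at 5000 genes. Middle and right, interquartile range of log2(FPKM + 1) over blastomeres against median level at each stage for genes with a median above 1, with machinery genes in colour and other protein-coding genes in grey. Blastomeres with fewer genes also show fewer machinery genes, and spread is narrower at high levels in both sets.

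Gtf2b had the widest spread of the machinery at the 4-cell stage, with an interquartile range of 4.27. Of its 24 values 18 were above 1 FPKM and the other 6 were at 0. Med16 and Med30, both of the Mediator tail, followed with 4.05 and 3.81. These ranks rest in part on the 3 gene-poor blastomeres, since without them Gtf2b had 1.44, Med30 1.29 and Med16 3.01, and Supt3 was the widest with 3.51. At the 8-cell stage the widest were Gtf2e1, the larger TFIIE subunit, with 4.76, Supt3 of SAGA with 4.11 and Taf10 with 3.82. Without the 3 gene-poor blastomeres of that stage Gtf2e1 had 2.69, Supt3 2.78 and Taf10 3.85, and Taf10 was the widest. Gtf2e1 was 0 in 8 of 26 8-cell blastomeres and had a median of 17.04. The narrowest spreads at the 4-cell stage belonged to Taf13 (0.36), Polr2l (0.46) and Polr2m (0.47). Once the gene-poor blastomeres were left out, Taf1d was the narrowest with 0.25, and Taf13 had 0.31 and Polr2l 0.48. At the 8-cell stage the narrowest spreads belonged to Polr2e (0.32), Polr2k (0.40) and Polr2f (0.41). Here Polr2k was the narrowest without the gene-poor blastomeres, with 0.39, and Polr2e had 0.55 and Polr2f 0.52.

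Values of 0 in well expressed genes gathered in few blastomeres. Among the 69 machinery genes with a 4-cell median above 10 FPKM there were 45 values of 0, and 77.8% of them fell in the 3 blastomeres with fewer than 5000 genes. At the 8-cell stage 61 values of 0 were found among 70 such genes, and 54.1% fell in the 3 gene-poor blastomeres. The poorest 4-cell blastomere, with 3009 genes above 1, had 37 of the 95 machinery genes at 0. It still had 284 FPKM of Polr2f, 213 of Eloc and 49.4 of Tbp. The poorest 8-cell blastomere had 3548 genes above 1 and a depth of 2340000 fragments, and held 38 machinery genes at 0. The number of genes detected and the number of machinery genes detected moved together, and the part of RNA loss or capture in this was not tested.

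The stage difference of a gene was taken as the difference of the stage medians of log2(FPKM + 1), 8-cell minus 4-cell, and a size above 1 was called. By this rule 8 of the 95 genes were lower at the 8-cell stage and 1 was higher. The background over the 12714 protein-coding genes was 10.03% lower and 5.22% higher, so the lower share among the machinery genes, 8.42%, was near it. Among genes with a median above 1 at either stage the background was 18.3% lower and 9.55% higher, and 8 (9.30%) and 1 (1.16%) of 86 machinery genes were called. Every called gene passes this filter by construction, so the filter removes only genes without a call. It kept 86 of the 95 machinery genes and 6954 of the 12714 protein-coding genes. The shares were not matched for level, and the smaller share of the machinery is not read as a trait of its genes. No machinery gene and 0% of protein-coding genes had 4-cell and 8-cell ranges that did not overlap. Counting any difference, 60 of the 86 machinery genes (69.8%) were lower at the 8-cell stage, against a background of 55.6%. The median difference was -0.27 for these genes and -0.11 for 6954 protein-coding genes. The machinery genes together made up 1.82% to 2.498% of all FPKM at the 4-cell stage (median 2.12%) and 1.43% to 2.003% at the 8-cell stage (median 1.74%).

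**Figure D4:**
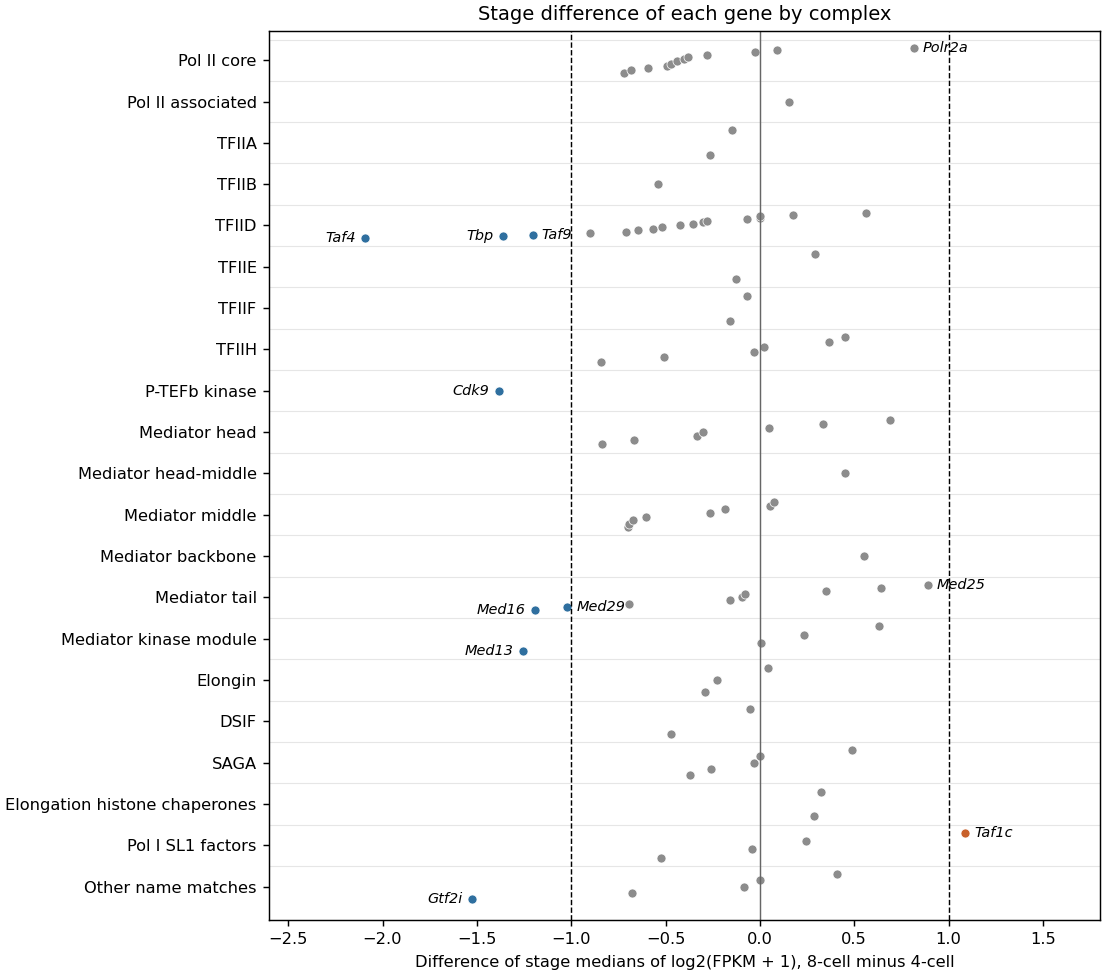
Difference of stage medians of log2(FPKM + 1), 8-cell minus 4-cell, for the 95 genes listed at both stages, in rows by complex. Dashed lines mark a difference of 1 in size, blue points are lower and orange points are higher past that line. Of the 9 called genes, 3 are among the 17 TFIID genes and 3 among the 30 Mediator genes, and Taf1c is the single gene called higher.

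Of the 17 TFIID genes 3 were called lower, Taf4, Tbp and Taf9. Among genes with a median above 1 this was 3 of 14 (21.4%), near the background of 18.3%, and for Mediator it was 3 of 27 (11.1%). Tbp (chr17:15499888-15517427 on GRCm38) was lower at the 8-cell stage by 1.36 on the log2 scale, with 8-cell and 4-cell medians of 43.3 and 113 FPKM. The stages overlapped, with 25 of 26 8-cell blastomeres below the 4-cell median and 8 below the lowest 4-cell blastomere. Taf9 (chr13:100651343-100656060) had a difference of -1.20, and its median was 2.31-fold lower. Here 25 of 26 8-cell blastomeres lay below the 4-cell median and 17 lay below all 4-cell blastomeres. Taf9 shares 196 of its 1334 exon bases with Ak6 on the same strand. Taf4 (chr2:179912146-179976646) had a difference of -2.09, and no fold is given because its 8-cell median was 0. The size moved widely with the setting, to -5.07 with a pseudocount of 0.1 and -3.07 with columns rescaled to the same sum. With stage means the difference was -1.37, smaller than those of Tbp (-1.92) and Gtf2i (-1.74), so Taf4 is not ranked among them. The stages overlapped broadly for Taf4, since 3 of 24 4-cell blastomeres were at 0 as well. Taf4b came next within TFIID with a difference of -0.90, which did not pass the threshold. Without the 5 columns named NA it was -1.15, and both Taf4b and Taf12 were then called lower in addition to Taf4, Tbp and Taf9.

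Summed over its 17 genes, TFIID was 948 to 1934 FPKM at the 4-cell stage (median 1268) and 585 to 1218 at the 8-cell stage (median 771). All 26 8-cell blastomeres lay below the 4-cell median and 23 lay below the lowest 4-cell blastomere. These blastomeres come from few embryos, and such counts for sums of genes outside the machinery were not made. The ratio of the medians was 0.608. Taf9 and Tbp, singled out after their values were seen, carried much of this. Without Taf9 the ratio was 0.757, with 16 of 26 8-cell sums below the lowest 4-cell sum. Without Taf9 and Tbp it was 0.817, with 6 below. Of the 14 TFIID genes with a median above 1 at either stage, 12 had a lower 8-cell median, where 55.6% of protein-coding genes with such a median did, and Taf1 and Taf6 had a higher one.

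**Figure D5:**
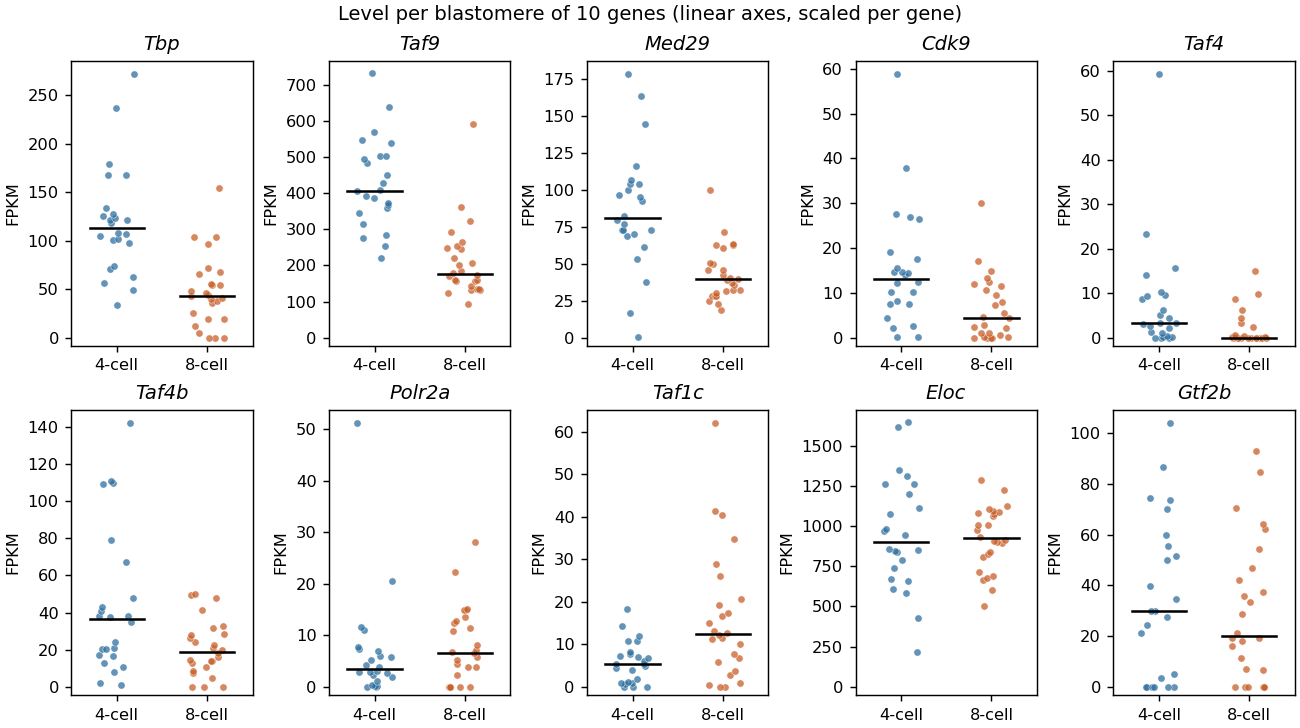
FPKM of 10 genes in each of the 24 4-cell blastomeres (blue) and 26 8-cell blastomeres (orange) on linear axes scaled per gene, with medians as black bars. Points are spread sideways at random. Most 8-cell values of Tbp, Taf9 and Med29 lie below the 4-cell median, Eloc has like medians, and Gtf2b has values at 0 at both stages.

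Cdk9 (chr2:32705782-32712784) ranged from 0.0254 to 58.8 FPKM in 4-cell blastomeres and from 0 to 30.1 in 8-cell blastomeres. Its difference was -1.38, its median was 2.98-fold lower, and 22 of 26 8-cell blastomeres lay below the 4-cell median. The difference of Cdk9 was -1.94 without the columns named NA and -1.03, close to the threshold, without the gene-poor blastomeres. A set of 3 Mediator genes were called. Med29 of the tail (chr7:28385247-28392690) ranged from 0.0957 to 178 FPKM (median 80.9) and from 18.9 to 100.0 (median 39.3), with 25 of 26 8-cell blastomeres below the 4-cell median. Its difference of -1.02 lay at the threshold and was -0.99 when any of 12 of the 4-cell blastomeres was left out. Med13 of the kinase module (chr11:86267033-86357596) had medians of 4.61 and 1.35 and a difference of -1.26. With stage means this difference was -0.96 and not called, and without the columns named NA it was -1.78. Med16 of the tail (chr10:79894706-79908938) had medians of 6.397 and 2.46 and a difference of -1.19. With 11 of 26 8-cell blastomeres above the 4-cell median its stages overlapped broadly, and the call was lost, down to -0.66, when any of 13 of the 8-cell blastomeres was left out.

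Gtf2i (chr5:134237832-134317678), which encodes TFII-I, a regulated factor rather than a general one despite its symbol, ranged from 0.955 to 53.9 FPKM (median 16.8) and from 0 to 23.4 (median 5.41). Its difference was -1.53, and 24 of 26 8-cell blastomeres lay below the 4-cell median. The difference was -0.65 without the 3 gene-poor blastomeres at each stage, which loses the call, -2.39 without the columns named NA, and between -1.93 and -1.12 with single blastomeres left out. Taf1c (chr8:119597974-119605206) belongs to SL1, the promoter factor of Pol I, and was the single gene called higher. It ranged from 0 to 18.3 FPKM in 4-cell blastomeres (median 5.30) and from 0 to 62.0 in 8-cell blastomeres (median 12.4), a difference of 1.09, with 20 of 26 8-cell blastomeres above the 4-cell median. Without the 5 columns named NA its difference was 0.99. Taf1c shares 481 of 4054 exon bases with Dnaaf1 on the opposite strand.

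None of the 12 core subunits of the polymerase was called, all with a median above 1, where the background was 18.3% lower and 9.55% higher. This background was not matched for level. At both stages 11 of the 12 core subunits had medians above 10 FPKM, where spread is narrower than from 1 to 10 FPKM. The lack of calls is therefore not read as a trait of the core. Of the 12 core subunits 10 had a lower and 2 a higher 8-cell median, where the background of genes lower by any amount was 55.6%. Differences ran from -0.72 (Polr2d) to 0.82 (Polr2a), with a median of -0.42, against -0.11 for protein-coding genes with a median above 1. Polr2a and Polr2g were the 2 with a higher median. Polr2a had 19 of 26 8-cell blastomeres above the 4-cell median, although 4 8-cell blastomeres had none of it. The size of its difference moved with the setting, from 0.39 with stage means and 0.50 without the columns named NA to 1.02, past the threshold, with each blastomere rescaled to the same sum. Summed over the 12 subunits the core was 1361 to 3369 FPKM at the 4-cell stage (median 2760) and 1206 to 3724 at the 8-cell stage (median 1999), and 23 of 26 8-cell blastomeres lay below the 4-cell median. Mediator as a whole had median sums of 1915 and 1495, and TFIIH of 616 and 521, with overlapping ranges in both cases. Elongin had 1207 and 1273.

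Other genes among the 10 largest differences in each direction did not pass the threshold. On the lower side these were Taf4b and Gtf2h5, the smallest TFIIH subunit, with -0.90 and -0.84. On the higher side Med25 of the tail had 0.89, which was 0.59 to 1.19 with single blastomeres left out, past the threshold for 12 of the 4-cell blastomeres. Without the 5 columns named NA it turned to -0.29, so Med25 has no settled direction. Med22 and Med24 had 0.69 and 0.64, Taf1 had 0.56, Med14 had 0.55, Supt3 had 0.49, and Med19 and Gtf2h3 both had 0.45. Some of these sizes moved widely. Supt3 ran from 0.18 to 0.80 with single blastomeres left out and was 0.17 without the gene-poor ones. Without the columns named NA Gtf2h3 was 0.23 and Med14 was 0.92, and with stage means Gtf2h3 was 0.19 and Supt3 was 0.77. Eloc, the highest gene, had medians of 900 and 925 and a difference of 0.04. Gtf2f1 had a difference of -0.16, and -0.23 to -0.09 with single blastomeres left out. Eloa had -0.29, which was -0.90 with stage means and -0.12 without the gene-poor blastomeres.

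Other genes of the same pathway, named from a list and not by the symbol rule, were counted in the same way. All 41 were listed, 40 at both stages, and 4 were lower and 1 higher past the threshold. With the background of 10.03% lower and 5.22% higher over all protein-coding genes, these counts are near what other genes show, and the values that follow are a description. Paf1, the subunit that names the PAF1 elongation complex, ranged from 26.9 to 259 FPKM in 4-cell blastomeres (median 110) and from 0 to 102 in 8-cell blastomeres (median 30.6), a difference of -1.79. Its partner Ctr9 had -1.14, while Cdc73 had -0.67, Rtf1 had -0.23, Leo1 had -0.04 and Wdr61 had 0.06. Hexim1, the inhibitor of P-TEFb, had -1.11, and Mllt3 of the super elongation complex had -1.15. Both P-TEFb cyclins stayed within the threshold, Ccnt1 with -0.48 and Ccnt2 with 0.54. Ccnk, the cyclin of the polymerase tail kinases Cdk12 and Cdk13, was the single one called higher, with medians of 2.69 and 8.95 FPKM and a difference of 1.44. Ercc2, a TFIIH helicase, had medians of 0.0724 and 0.0250, and Tbpl2, the oocyte form of TBP, reached at most 0.0547 FPKM at the 4-cell stage and was not listed at the 8-cell stage.

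Exons of 22 machinery genes overlap exons of another gene. For 6 of them the overlap with a single other gene exceeds 20% of their exon bases. These are Polr2k, Med31, Taf6l, Polr2c, Taf3 and Supt16. The overlap is on the same strand for Polr2k, with Spag1, and on the opposite strand for the other 5. Smart-seq2 libraries do not keep the strand, so reads over these bases cannot be told apart. The levels of these 6 genes and of Polr2i are less certain.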

How the data were processed

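Per the labels and the study's methods, the authors aligned Smart-seq2 read pairs to mm10 with STAR (2.5.1b in the submitters' processing notes), kept unique alignments, counted them on Refseq genes with HTSeq and deposited FPKM values for 15218 genes (4-cell) and 15342 genes (8-cell). Gene lengths and totals behind the FPKM values are not given in the sources used here. Entrez identifiers were matched to RefSeq on GRCm38.p6 (15200 and 15320 found). The depth of a blastomere was derived from the low values of genes with 1 curated transcript, which were whole multiples of 1 fragment within 0.1 for at least 90.6% of values. This step and the stage difference were tested on simulated data with independent blastomeres, where only genes with a 4-cell median above 10 FPKM were changed. The simulation therefore does not cover lower genes such as Taf4, Med13, Med16 and Taf1c, or blastomeres that share an embryo. The stage of each table comes from the paper. No column name fits a single sample label, and 5 8-cell columns are named NA, so the planned limma test over embryos was not run, and lineages were not compared.

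Differences use log2(FPKM + 1), which understates changes of low genes. Members, gene lists and complexes were chosen with earlier results of these data known. Genes named with values are the 3 highest, lowest, widest and narrowest per stage, the 10 largest differences each way among genes with a median above 1, landmarks, genes the paper names and related pairs. Some further values are given per complex. Repeat tables and 5-cell and 6-cell embryos were not used here. Python 3.11.15, numpy 2.4.6, pandas 2.3.3 and matplotlib 3.10.9 were used.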

Additional observations from a re-analysis of the deposited data

How the results depend on the processing

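No paired analysis was possible because nothing in the column names gives an embryo or a replicate number. This rests on the names alone. Column order and library depth were not used to place blastomeres, and whether they would give the embryos was not tested. Stage differences were recomputed with stage means, a pseudocount of 0.1, both rescalings, without columns called NA, without gene-poor blastomeres, and leaving out each blastomere, and no called direction reversed. Med25, which was not called, turned from 0.89 to -0.29 once the columns named NA were dropped. Cdk9, Taf4, Taf9 and Tbp were called lower under every one of these settings. The number of genes called higher, 1 as reported, was 4 with a pseudocount of 0.1, 4 with all columns rescaled to the same sum, 0 once the columns named NA were dropped, and between 1 and 2 when single blastomeres were left out. The ratio of 8-cell to 4-cell median sums, 0.781 for Mediator and 0.845 for TFIIH, was 0.848 and 0.941 with columns rescaled, and 0.943 for TFIIH with median ratio scaling. With stage means Med13, Med16 and Med29 had differences of -0.96, -0.48 and -0.75, and 5 of the 8 genes called lower were shared with the reported ones. The causes were not tested. The order of genes near 0, such as Taf5 and Med12, is not read. Blastomeres of an embryo are not independent, and the precision of stage medians is unknown.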
